A study of Homo sapiens with 4 samples.

Results

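Nuclear receptors are transcription factors that bind DNA through a zinc finger domain and, in most cases, are switched by a small lipophilic ligand such as retinoic acid, thyroid hormone, a fatty acid or a steroid. Many of them bind DNA as heterodimers with a retinoid X receptor, so the RXR subtypes are shared partners of the retinoic acid, thyroid hormone, fatty acid, vitamin D and sterol receptors. In heart muscle, the PPARs, the estrogen-related receptors (ERRs) and their coactivators of the PPARGC1 (PGC-1) family are known as regulators of fatty acid oxidation and mitochondrial genes. The genes described here are 41 nuclear receptor genes and the 2 coactivator genes PPARGC1A and PPARGC1B, 43 of the 23615 gene symbols in the deposited table, chosen by name. All 43 were found, each in 1 row except RXRB, which lies in the major histocompatibility region and has 6 loci in the table, of which 1 carried its FPKM in each library.

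The comparison asks how cardiomyocytes made by 2 routes from RUES2 differ, an established line of human embryonic stem cells. Both routes began with activin A and BMP4 at the high activin A and low BMP4 setting, with the Wnt activator CHIR-99021 during induction. For the CPC group, cultures went on as cardiac progenitor cells (CPCs), with XAV, a tankyrase inhibitor that blocks Wnt/β-catenin signaling, drawn at day 3 in the study's scheme. The methods describe that step for a subset of experiments and the sample labels do not give it, so whether these cultures received it is not established. For the ECsXAV group, cultures were given VEGF from day 2, with bFGF and BMP4, to make hemogenic endothelial cells (ECs), and these were turned to the cardiac lineage with 2 µM XAV from day 5. Poly-A RNA of unsorted cells at day 14 was sequenced from 2 cultures of each route, called biological replicates by the study. The route by way of endothelium used another medium from day 2 to day 5, and the sample names of the groups begin differently, so medium, XAV dose and timing, and experiment cannot be told apart from the route.

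The authors deposited FPKM, the fragments of a gene scaled by its length and by the mapped fragments of the library, so levels of different genes can be compared per length. Total depth is unknown, but the FPKM of rarely read genes come in steps of whole reads, and these gave depths of 50.1% to 86.9% in the other 3 libraries relative to ECsXAV replicate 1. Cardiomyocyte markers were high in all 4 libraries. Their summed level over 10 genes was 14931 to 15787 FPKM in CPC cardiomyocytes and 15943 to 16765 FPKM in ECsXAV. The sums did not overlap, but the gap between the groups was smaller than the spread within either. Of the 10 markers, 4 were higher in both ECsXAV libraries and 2 in both CPC libraries, beside 25.4% and 24.4% of all tested genes. Markers of other cells were not equal between the groups either. The 18 hepatic and endoderm markers summed to 38.5 to 47.1 FPKM in ECsXAV and 17.4 to 19.7 FPKM in CPC cardiomyocytes, and the 9 skeletal muscle markers to 39.5 to 59.3 FPKM and 149 to 154 FPKM. Sums were also higher in ECsXAV for fibroblast and epicardial markers (116 to 151 FPKM against 54.6 to 65.1 FPKM), smooth muscle markers (323 to 356 FPKM against 209 to 225 FPKM) and blood markers (3.47 to 6.07 FPKM against 0.207 to 0.533 FPKM). The smooth muscle list was mixed, with 2 of its 7 genes higher in both CPC libraries and 2 higher in both ECsXAV libraries. Among all tested genes the shares were 24.4% and 25.4%. In unsorted cultures, fewer cells of a type and less RNA per cell cannot be told apart.

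A gene was tested with limma on log2(FPKM + 1) where its mean FPKM was at least 1, which 26 of the 43 members reached. Changes are CPC minus ECsXAV on that scale, positive where the CPC cultures were higher, and because of the added 1 they are too small for weakly expressed genes. The criterion took the study's thresholds, an adjusted p under 0.05 and a change of over 2-fold, and applied them to the limma fit on that scale. The study itself tested read counts with DESeq, so its own calls are not repeated here. None of the 26 tested members met the criterion, which 2.15% of all 12398 tested genes met. Without the fold limit, 1 member had an adjusted p under 0.05, RXRG, beside 2.89% of all tested genes. At an unadjusted p under 0.05 there were 3 members, RXRG, NR4A1 and ESR1, all higher in CPC cardiomyocytes, beside 18.2% of all genes and 7.86% with that direction. ESR1 was under 1 FPKM in both ECsXAV libraries and reached the limit for testing through its CPC libraries, the group where it is higher, so its place in this count is not independent of the limit. The libraries of the groups did not overlap for 14 members, beside 49.8% of all genes, with 8 higher in CPC cardiomyocytes (24.4% of all genes) and 6 higher in ECsXAV (25.4%). The median change was 0.12, with 18 members above and 8 below 0. The smallest two-sided p of an exact permutation test of 2 against 2 libraries is 0.333, so the p-values depend on limma's pooling of variance over genes.

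**Figure D1:**
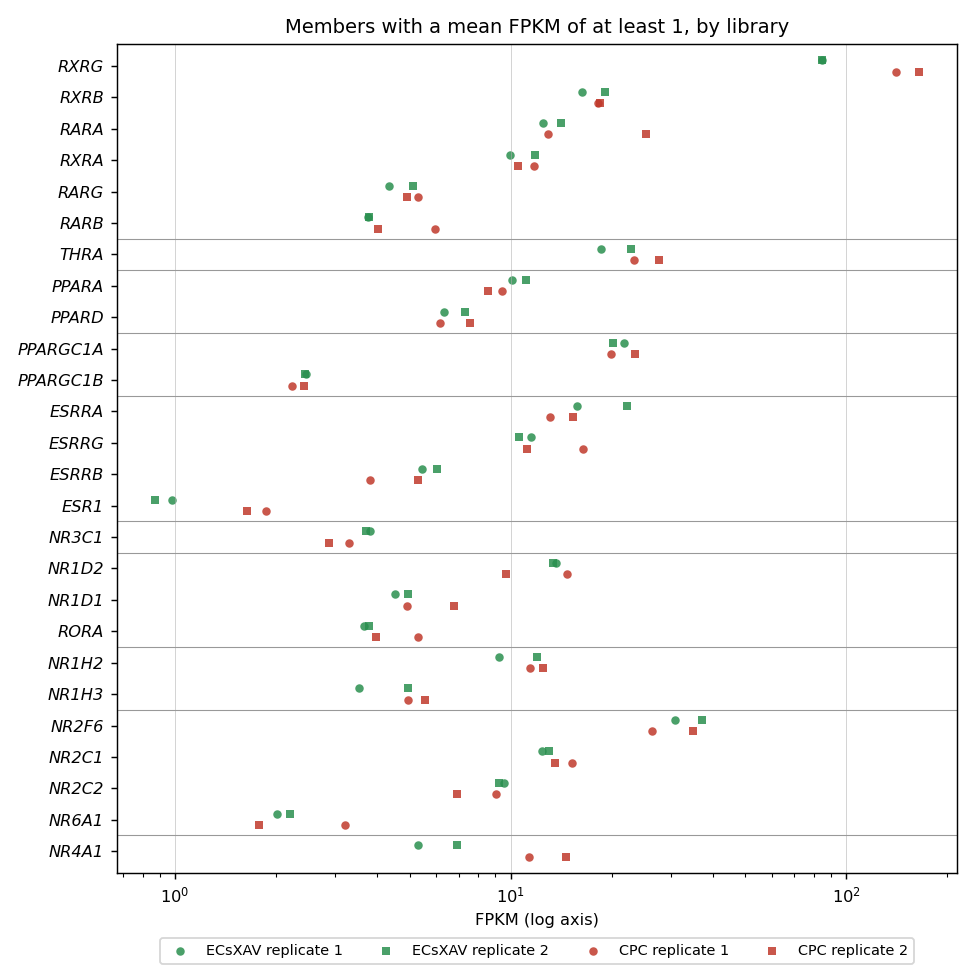
FPKM of the 26 tested members in each of the 4 libraries on a log axis, with horizontal lines between receptor classes. RXRG lies above all other members in every library, at 84.5 to 165 FPKM, and its CPC libraries lie to the right of its ECsXAV libraries.

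RXRG, the retinoid X receptor γ, is known from heart and skeletal muscle. It lies on chromosome 1 from 165370159 to 165414592 on the minus strand (GRCh37, the build of hg19). RXRG had 84.7 and 84.5 FPKM in the ECsXAV libraries and 140 and 165 FPKM in the CPC libraries. Both CPC libraries lay above both ECsXAV libraries, and the gap was larger than the spread within either group. The change was 0.84 (standard error 0.13, 95% interval 0.51 to 1.17, adjusted p = 0.0492 from limma), and the mean FPKM was 1.80 times as high in CPC cardiomyocytes. The adjusted p lost the threshold under 5 of the 11 alternatives that kept all libraries, 0.0513 to 0.0886, and when any 1 library was left out, ECsXAV replicate 1 (0.276), ECsXAV replicate 2 (0.319), CPC replicate 1 (0.0884) or CPC replicate 2 (0.105 from limma). RXRG was also the most abundant member in every library. It held 23.7% to 36.8% of the summed FPKM of the 43 members, and 97.2% of all tested genes had a lower mean FPKM. Of the 9 skeletal muscle markers, 2 were higher in both of the same libraries, as were 24.4% of all tested genes. These were ACTN3, which rose by 1.48, and STAC3, which rose by 2.81 (adjusted p = 0.0440 and 0.00807 from limma). ACTN3 alone, at 37.2 and 55.9 FPKM against 130 and 129 FPKM, made up most of the sum of the 9 markers. The myogenic factors MYF5, MYF6 and PAX7 were listed at 0 in all libraries and MYOD1 in all but CPC replicate 2 (0.0353 FPKM), while MYOG (0.128 to 0.430 FPKM), PAX3 (0.206 to 0.522 FPKM) and MYLPF (0 to 1.12 FPKM) overlapped between the groups. The part of these markers in the RXRG difference was not tested.

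The promoter of RXRG is shown because RXRG is the member with the smallest p, and that of NR4A1 because it had the largest change. Each run is the RefSeq promoter window of 300 bases around the gene's start, 5′ to 3′ on the gene's strand, at chr1:165445077-165445376 (minus strand) for RXRG and chr12:52022582-52022881 (plus strand) for NR4A1 in GRCh38.p14. Capitals mark exact matches on either strand to AGGTCA (the half-site bound by many nuclear receptors), TGACGTCA (cyclic AMP response element), GGGCGG (GC box), TATAAA (an element of core promoters) and CACGTG (E-box).
RXRG: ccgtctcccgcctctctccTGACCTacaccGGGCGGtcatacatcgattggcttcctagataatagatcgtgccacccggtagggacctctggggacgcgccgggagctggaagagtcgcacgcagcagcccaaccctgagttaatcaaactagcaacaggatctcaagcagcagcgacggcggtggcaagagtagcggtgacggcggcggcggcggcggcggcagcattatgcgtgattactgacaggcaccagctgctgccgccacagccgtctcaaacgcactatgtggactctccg
NR4A1: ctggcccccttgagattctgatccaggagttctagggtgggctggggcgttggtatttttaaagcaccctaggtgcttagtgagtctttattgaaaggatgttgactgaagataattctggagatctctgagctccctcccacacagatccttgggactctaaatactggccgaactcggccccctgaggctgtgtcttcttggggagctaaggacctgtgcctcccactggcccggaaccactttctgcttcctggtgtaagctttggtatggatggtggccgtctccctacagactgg
The RXRG window held a half-site in reverse, TGACCT, with its first base at -231 from the start, and a GC box with its first base at -220. The NR4A1 window held none of the 5 motifs. Neither window was matched to the transcripts that carried the FPKM of its gene. Windows were found for 39 of the 43 members, and 7 of them held the half-site (RXRG, RARA, PPARG, NR1H3, NR1H4, NR5A2 and NR0B1), beside 13.9% of all 27305 promoter windows. A match is a description of letters and was not tied to binding.

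The other RXR genes were expressed at lower levels and did not pass the test. RXRB had 16.4 and 19.1 FPKM in the ECsXAV libraries and 18.2 and 18.4 FPKM in the CPC libraries, a change of 0.05 (95% interval -0.26 to 0.36). RXRA had 9.96 and 11.8 FPKM against 11.8 and 10.5 FPKM, a change of 0.03 (95% interval -0.31 to 0.38). For both genes the libraries of the groups overlapped, and the intervals left no room for a 2-fold change. The share of RXRG in the summed FPKM of the 3 RXR genes was therefore 74.8% ± 2.18 (SD, n = 2) in ECsXAV and 83.7% ± 1.88 (SD, n = 2) in CPC cardiomyocytes.

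Most RXRG FPKM came from the RefSeq transcript NM_006917, with a smaller part from NM_001256571. NM_006917 had 76.0 and 71.4 FPKM in the ECsXAV libraries and 112 and 130 FPKM in the CPC libraries, a change of 0.71 (standard error 0.12, unadjusted p = 0.00506, adjusted p = 0.198 from limma). NM_001256571 had 6.59 and 10.9 FPKM against 26.4 and 32.1 FPKM, a change of 1.67 (standard error 0.27, unadjusted p = 0.00420, adjusted p = 0.192 from limma). Both transcripts were higher in each CPC library than in each ECsXAV library. The share of NM_001256571 in RXRG was 7.77% and 12.9% in the ECsXAV replicates and 18.8% and 19.5% in the CPC replicates, a division of reads among transcripts that Cufflinks estimated. Of the 44 member transcripts with a mean FPKM of at least 1, none met the criterion by limma, beside 0.0727% of all 16504 transcripts tested, and 3 had an unadjusted p under 0.05, these 2 and NM_173157 of NR4A1, beside 13.1% of all. The groups did not overlap for 20 of the 44, beside 45.3% of all.

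**Figure D2:**
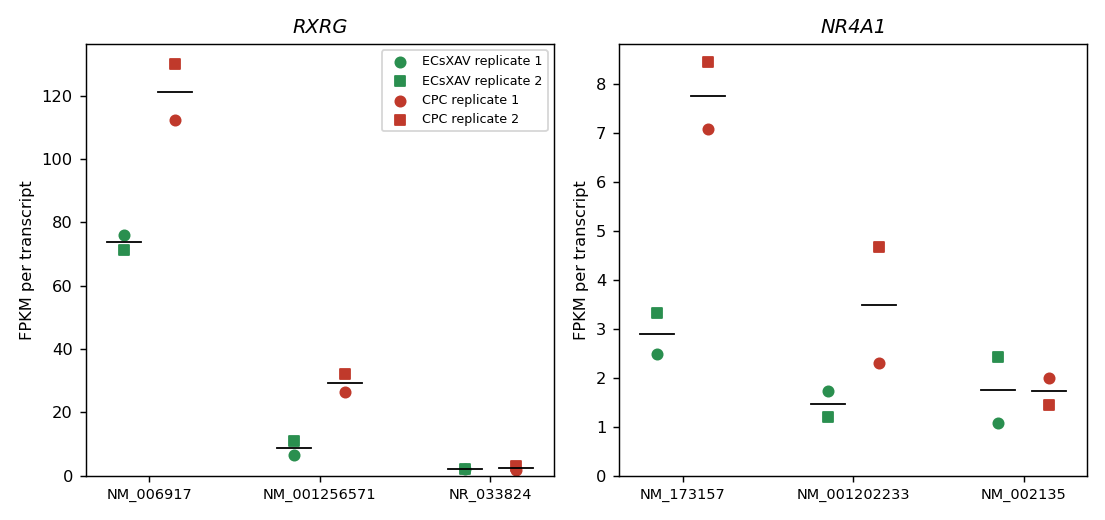
FPKM of the 3 most abundant RefSeq transcripts of RXRG (left) and NR4A1 (right) in each library, with a bar at each group's mean. NM_001256571 of RXRG lies at 6.59 to 10.9 FPKM in ECsXAV and 26.4 to 32.1 FPKM in CPC cardiomyocytes, and NM_173157 of NR4A1 lies higher in both CPC libraries.

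The retinoic acid receptors RARA, RARB and RARG, which bind DNA with an RXR partner, were expressed well below RXRG. RARA had 12.5 and 14.2 FPKM in the ECsXAV libraries and 12.9 and 25.4 FPKM in the CPC libraries, so that CPC replicate 1 lay within the range of the ECsXAV libraries and CPC replicate 2 far above it. Its change was 0.42 with the widest interval among the tested members (-0.40 to 1.24, standard error 0.32). RARB, itself a known retinoic acid target, had 3.75 and 3.78 FPKM against 5.93 and 4.03 FPKM, and RARG had 4.34 and 5.12 FPKM against 5.31 and 4.90 FPKM. Neither passed the test, with adjusted p of 0.466 and 0.775 from limma. The summed RXR FPKM were 5.20 ± 0.27 times the summed RAR FPKM in ECsXAV and 6.35 ± 0.99 times in CPC cardiomyocytes (SD, n = 2), with values of 5.39 and 5.01 against 7.05 and 5.65 in the single libraries.

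Among genes that handle or answer to retinoids, 9 of 17 were tested and 2 met the criterion, beside 2.15% of all tested genes. An unadjusted p under 0.05 was reached by 4, beside 18.2% of all tested genes, with 2 of the 4 higher in CPC cardiomyocytes. CRABP2, which carries retinoic acid to its receptors, rose from 56.2 and 59.6 FPKM to 147 and 163 FPKM in CPC cardiomyocytes, a change of 1.402 (adjusted p = 0.0158 by limma, standard error 0.12). RARRES2, a secreted factor first known as retinoid-responsive, fell from 8.87 and 12.5 FPKM to 2.02 and 2.94 FPKM, a change of -1.74 (adjusted p = 0.0354 from limma). TGM2 had 89.6 and 103 FPKM against 71.2 and 67.7 FPKM (change -0.46, adjusted p = 0.144 from limma). RDH10 had 1.92 and 2.09 FPKM against 3.94 and 2.64 FPKM (change 0.50, adjusted p = 0.270 from limma). CYP26A1, the retinoic acid hydroxylase, stood at 0.683 and 0.376 FPKM against 0.798 and 2.63 FPKM and did not pass the test. The synthetic enzymes ALDH1A1, ALDH1A2 and ALDH1A3 stayed under 1 FPKM in every library. The list had a median change of -0.05, beside -0.0045 for all tested genes.

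Of the thyroid hormone receptors, which carry thyroid hormone's effect on the heart, THRA made up nearly all of the signal. THRA had 18.6 and 22.9 FPKM in the ECsXAV libraries and 23.4 and 27.6 FPKM in the CPC libraries. The groups did not overlap, as in 49.8% of all tested genes, and the change of 0.29 (95% interval -0.11 to 0.69, adjusted p = 0.416 from limma) was not beyond the spread. THRB was at 0.0753 to 0.149 FPKM, so that THRA held 99.4% to 99.7% of the summed level of both. THRA and NR1D1 lie tail to tail on opposite strands of chromosome 17 and share 1075 bases in GRCh37, so without a stated use of strand in the FPKM their reads may be mixed there. Of 14 genes that handle thyroid hormone or are known to answer to it in heart, 7 were tested. Of these, 2 met the criterion, beside 2.15% of all tested genes. An unadjusted p under 0.05 was reached by 6, beside 18.2% of all tested genes, with 1 of the 6 higher in CPC cardiomyocytes. MYH7 fell by 2.52 (adjusted p = 0.0115 from limma) and MYH6 rose by 1.21 (adjusted p = 0.0358 from limma). The study had picked both myosin genes on these samples for their difference, and PLN and ATP2A2 for the lack of one, so none of them is independent evidence. PLN, the phospholamban gene, had 1234 and 1085 FPKM against 629 and 640 FPKM (adjusted p = 0.0629 from limma), and ATP2A2 308 and 298 FPKM against 219 and 233 FPKM (adjusted p = 0.164 from limma). SLC16A10 had 3.70 and 2.65 FPKM against 1.90 and 1.64 FPKM (change -0.58, adjusted p = 0.181 from limma). HCN2 had 1.65 and 2.28 FPKM against 1.12 and 1.18 FPKM (change -0.45, adjusted p = 0.261 from limma). The deiodinases DIO1, DIO2 and DIO3 were at 0 to 0.142 FPKM in all libraries.

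The PPARs sense fatty acids. PPARA, the subtype most tied to fatty acid oxidation in heart, had 10.1 and 11.1 FPKM in the ECsXAV libraries and 9.42 and 8.53 FPKM in the CPC libraries, a change of -0.22 (95% interval -0.52 to 0.09, adjusted p = 0.417 from limma). PPARD had 6.32 and 7.32 FPKM against 6.15 and 7.56 FPKM, a change that rounds to 0.00 (0.0028, 95% interval -0.38 to 0.38). PPARG, the adipose subtype, was below the limit for testing at 0.335 and 0.502 FPKM against 0.0965 and 0.140 FPKM, lower in both CPC libraries. When genes of any level were tested its unadjusted p was 0.0106 and its adjusted p 0.152 from limma. PPARA thus held 59.5% ± 1.16 of the summed PPAR level in ECsXAV and 56.3% ± 5.33 in CPC cardiomyocytes (SD, n = 2), which overlapped between the groups.

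The coactivators did not pass the test. PPARGC1A (PGC-1α), which drives mitochondrial genes through PPAR and ERR partners, had 21.8 and 20.1 FPKM in the ECsXAV libraries and 19.9 and 23.5 FPKM in the CPC libraries. The libraries of the groups overlapped, and the change was 0.04 (standard error 0.13, 95% interval -0.29 to 0.38, adjusted p = 0.895 from limma). PPARGC1B (PGC-1β) had 2.45 and 2.44 FPKM against 2.23 and 2.41 FPKM, a change of -0.05 (95% interval -0.39 to 0.28). PPARGC1A held 89.2% to 90.7% of the summed level of both in every library.

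The ERRs have no known natural hormone and work with the PGC-1 coactivators. ESRRA had 15.7 and 22.2 FPKM in the ECsXAV libraries and 13.1 and 15.3 FPKM in the CPC libraries, a change of -0.38 (adjusted p = 0.399 by limma, standard error 0.19). ESRRG had 11.5 and 10.6 FPKM against 16.4 and 11.2 FPKM, a change of 0.27 (adjusted p = 0.536 from limma). ESRRB had 5.43 and 6.03 FPKM against 3.81 and 5.30 FPKM, a change of -0.29 (adjusted p = 0.462 from limma). None of the 3 passed the test. ESRRA had the highest mean of the ERRs in ECsXAV cardiomyocytes, at 18.97 FPKM beside 11.1 FPKM for ESRRG, while in CPC replicate 1 ESRRG was the higher of the pair. The share of ESRRG in the summed ERR level was 31.3% ± 5.60 against 42.1% ± 9.99 (SD, n = 2), a difference close to the spread.

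The estrogen receptors proper were near or under 1 FPKM. ESR1 lies on chromosome 6 from 151977826 to 152450754 (GRCh37) and overlaps SYNE1 on the other strand. It had 0.979 and 0.870 FPKM in the ECsXAV libraries and 1.86 and 1.64 FPKM in the CPC libraries. Both CPC libraries were higher, with a change of 0.52 (standard error 0.15, 95% interval 0.13 to 0.90, unadjusted p = 0.0185, adjusted p = 0.166 from limma). ESR2 was below the limit for testing at 0.347 and 0.519 FPKM against 0.222 and 0.154 FPKM. ESR1 was tested because its CPC libraries lifted its mean over the limit. With genes of any level in the fit, its change was the same and its adjusted p 0.149 from limma. The levels of ESR1 and ESR2 differed in opposite directions, without an adjusted p under 0.05 for either.

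Genes downstream of the PPARs, ERRs and PGC-1 were examined as lists. Of 26 genes of fatty acid use known as PPAR targets, 20 were tested, 17 of them lower in CPC cardiomyocytes, with a median change of -0.13. Of all 12398 tested genes, 6292 were lower, with a median of -0.0045. The 10 cardiomyocyte markers had a median of -0.28, with 6 lower and 4 higher. By its median, the shift therefore cannot be called particular to the PPAR target list, although its genes went more uniformly to the lower side than the markers. CD36, the fatty acid transporter, fell from 10.8 and 8.86 FPKM to 1.63 and 1.76 FPKM, a change of -2.001 (adjusted p = 0.0113 by limma, standard error 0.14), and was the 1 gene of the list past the criterion. CD36 is also found on endothelial and blood cells, and 7 of the 12 endothelial markers were higher in both ECsXAV libraries, with sums of 30.6 to 33.0 FPKM against 26.2 to 27.8 FPKM. Of the 12, 7 were under 1 FPKM in every library, and none of the 4 tested had an unadjusted p under 0.05 by limma. Among all tested genes, 25.4% were higher in both ECsXAV libraries. The part of endothelial and blood cells in the CD36 difference was not tested. UCP2, an inner membrane uncoupling protein, had 13.5 and 14.1 FPKM against 4.68 and 6.78 FPKM (change -1.15, adjusted p = 0.0510 from limma), and CPT1A, the liver form of the gatekeeper of fatty acid oxidation, 5.55 and 5.46 FPKM against 3.35 and 3.64 FPKM (change -0.53, adjusted p = 0.0993 from limma).

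Of 21 mitochondrial genes known as targets of ERRs and PGC-1, 20 were tested, and none met the criterion by limma, while 7 had an unadjusted p under 0.05. All 7 were lower in CPC cardiomyocytes, beside 10.4% of all tested genes. Of the 20, 19 had a negative change, with a median of -0.28 beside -0.0045 for all tested genes, and 14 had both CPC libraries below both ECsXAV libraries, where 25.4% of all tested genes did. The genes with the smallest p were CKMT2, the mitochondrial creatine kinase, at -0.65, CYCS, cytochrome c, at -0.74, UQCRC1, a complex III subunit, at -0.50, and IDH3A, of the citric acid cycle, at -0.39, with adjusted p of 0.101 to 0.171 from limma. The summed level of the list was 2622 and 2708 FPKM in the ECsXAV libraries and 1974 and 2220 FPKM in the CPC libraries. Of the regulators, ESRRA, ESRRB and PPARGC1B were lower in both CPC libraries and PPARGC1A and ESRRG overlapped between the groups, with none past the test. The 10 cardiomyocyte markers had a median change of -0.28 as well, with 6 lower (4 without overlap) and 4 higher (2 without overlap). By its median, the shift of the mitochondrial list therefore cannot be called particular to it, although its genes went more uniformly to the lower side than the markers. By flow cytometry for cardiac troponin T, the study reported that cardiomyocyte purity did not differ between the routes. It reported a slightly lower cardiomyocyte yield by way of endothelium. Whether the sequenced cultures were among those measured is not stated. The part of cardiomyocyte content in the shift of the mitochondrial list was not tested.

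**Figure D3:**
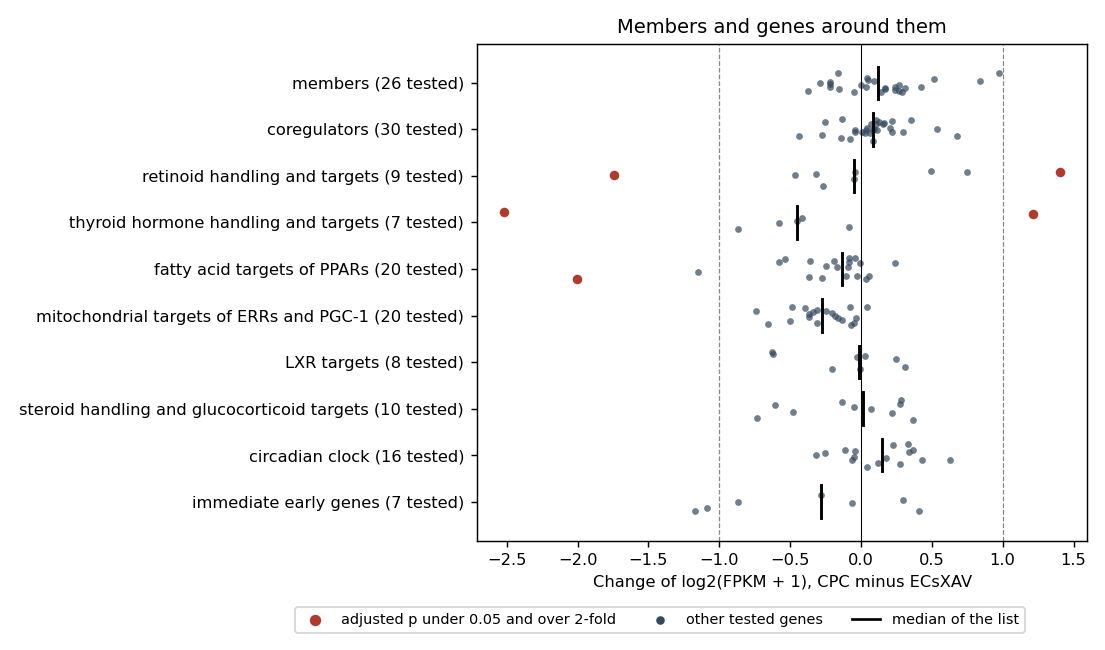
Changes of log2(FPKM + 1), CPC minus ECsXAV, of the members and of 9 lists of genes around them, 1 point per tested gene, with larger red points for genes past the criterion and a bar at each list's median. The mitochondrial targets lie almost all left of 0 with a median of -0.28, while the members have a median of 0.12 and none lies beyond 1 in either direction.

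NR4A1 (NUR77) belongs to the NR4A orphan receptors, which are known as immediate early genes that respond to calcium, growth factors and stress. It lies on chromosome 12 from 52416616 to 52453291 on the plus strand (GRCh37). NR4A1 had 5.30 and 6.94 FPKM in the ECsXAV libraries and 11.4 and 14.6 FPKM in the CPC libraries. Both CPC libraries were above both ECsXAV libraries, with a mean 2.12 times as high, and this was the largest change among the tested members at 0.97 (standard error 0.18, 95% interval 0.50 to 1.45, adjusted p = 0.0745 from limma). It did not pass the adjusted threshold over all tested genes. Of the 11 alternatives that kept all libraries, 3 took it past, without microRNA and small nucleolar RNA genes in the fit (adjusted p = 0.0115 from limma), under a block for replicate number (0.0464) and with both (0.00115), while 8 did not, with adjusted p of up to 0.135 from limma. With a library left out, the adjusted p was 0.138 to 0.274 from limma. Most of the difference was in the transcript NM_173157, at 2.49 and 3.32 FPKM against 7.08 and 8.45 FPKM (change 1.17, adjusted p = 0.193 from limma). NR4A3 was below the limit for testing at 0.590 and 0.869 FPKM against 0.948 and 1.35 FPKM, and NR4A2 was at 0.0542 to 0.141 FPKM. NR4A1 held 88.2% ± 0.08 of the summed NR4A level in ECsXAV and 91.1% ± 0.21 in CPC cardiomyocytes (SD, n = 2).

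Of 11 other immediate early genes, 7 were tested, 5 of them with a lower mean in CPC cardiomyocytes, and none met the criterion by limma. An unadjusted p under 0.05 was reached by 3, all lower in CPC cardiomyocytes, beside 10.4% of all tested genes with that direction. ATF3, a stress-responsive factor, had 10.5 and 14.0 FPKM in the ECsXAV libraries and 4.08 and 5.75 FPKM in the CPC libraries (change -1.17, adjusted p = 0.0669 from limma). JUN had 30.6 and 38.9 FPKM against 12.9 and 19.0 FPKM (change -1.09, adjusted p = 0.0869 from limma), and IER3 had a change of -0.87. FOSB, below the limit for testing, was at 0.367 and 0.353 FPKM against 0.903 and 0.951 FPKM, on the side of NR4A1.

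**Figure D4:**
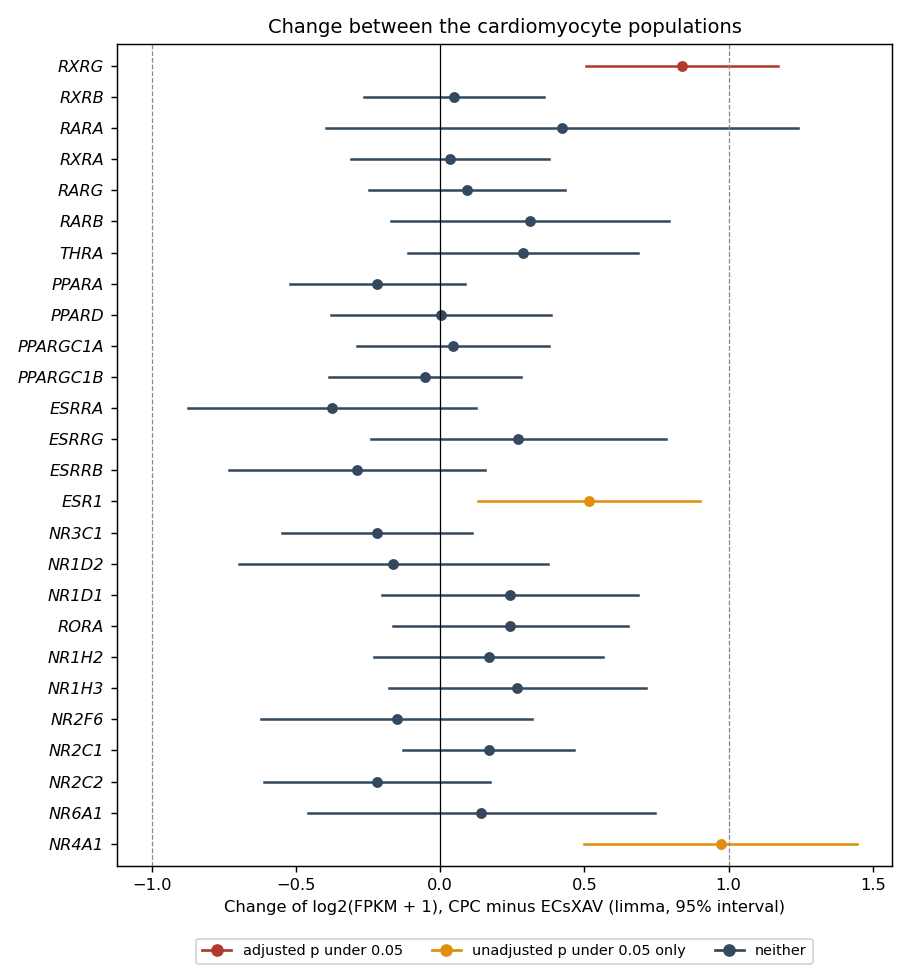
Change of log2(FPKM + 1), CPC minus ECsXAV, with its 95% interval from limma for the 26 tested members, in red where the adjusted p was under 0.05, orange where only the unadjusted p was, and dashed lines at 2-fold. RXRG, NR4A1 and ESR1 have intervals above 0, and RARA, RXRG and NR4A1 have intervals that reach beyond 2-fold.

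The steroid receptors were low. NR3C1, the glucocorticoid receptor, had 3.80 and 3.71 FPKM in the ECsXAV libraries and 3.31 and 2.88 FPKM in the CPC libraries, lower in both CPC libraries, with a change of -0.22 (95% interval -0.55 to 0.11, adjusted p = 0.456 from limma). NR3C2, the mineralocorticoid receptor, was at 0.458 to 0.572 FPKM in all libraries. Among 15 genes of steroid handling and glucocorticoid response, 10 were tested and none met the criterion by limma, while 2 had an unadjusted p under 0.05, beside 18.2% of all tested genes. SGK1, a kinase induced by both hormones, had 2.23 and 2.08 FPKM against 1.13 and 0.693 FPKM (change -0.73, adjusted p = 0.121 from limma), and reached the limit for testing through the ECsXAV libraries. TSC22D3, the glucocorticoid-induced leucine zipper, had 91.1 and 89.9 FPKM against 111 and 124 FPKM (change 0.37, adjusted p = 0.196 from limma), so the pair lay on opposite sides of 0.

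The clock receptors, the activator RORA and the repressors NR1D1 and NR1D2 (REV-ERBα and β), act on the same DNA element. NR1D2 was the highest at 13.7 and 13.3 FPKM in the ECsXAV libraries and 14.8 and 9.66 FPKM in the CPC libraries, so that the ECsXAV libraries lay between those of the other group. Its change was -0.16 (95% interval -0.70 to 0.37, adjusted p = 0.742 from limma). NR1D1 had 4.52 and 4.96 FPKM against 4.91 and 6.77 FPKM, and RORA 3.66 and 3.78 FPKM against 5.29 and 3.97 FPKM, both with a change of 0.24. RORB, known from brain and retina, was at 0.0266 FPKM in ECsXAV replicate 1 and listed at 0 in the other libraries. Of 19 clock genes in the table, 16 were tested and none met the criterion by limma, with a median of 0.15. C1orf51 (now CIART) alone had an unadjusted p under 0.05 (change 0.63, adjusted p = 0.245 from limma), beside 18.2% of all tested genes.

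The oxysterol receptors NR1H2 (LXRβ) and NR1H3 (LXRα) were both expressed. NR1H2 had 9.26 and 11.98 FPKM in the ECsXAV libraries and 11.4 and 12.5 FPKM in the CPC libraries, a change of 0.17 (95% interval -0.23 to 0.57, adjusted p = 0.631 from limma). NR1H3 had 3.54 and 4.94 FPKM against 4.95 and 5.56 FPKM, a change of 0.27 (adjusted p = 0.487 from limma). Of 8 LXR targets, all tested, none met the criterion by limma and 3 had an unadjusted p under 0.05, beside 18.2% of all tested genes. The cholesterol exporter ABCA1 (16.3 and 16.5 FPKM against 12.7 and 8.24 FPKM) and APOE (275 and 328 FPKM against 172 and 222 FPKM) were lower and MYLIP, which degrades the LDL receptor, was higher in CPC cardiomyocytes, with adjusted p of 0.176 to 0.250 from limma.

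The receptors of liver and gut were at or near 0. NR1H4 (the bile acid receptor) and NR1I2 (the pregnane X receptor) were listed at 0 in all 4 libraries, as was NR2E1, a receptor of neural stem cells and retina. NR1I3 was at 0.804 and 0.179 FPKM in the ECsXAV libraries and 0.237 and 0.145 FPKM in the CPC libraries, and NR0B2, a corepressor without a DNA-binding domain, at 0.127 to 0.758 FPKM. NR5A2, which liver and pluripotent cells use, was at 0.0593 and 0.0197 FPKM against 0.0114 and 0.0124 FPKM. AFP, the fetal liver marker, had 11.4 and 9.70 FPKM in ECsXAV and 0.199 and 0.124 FPKM in CPC cardiomyocytes beside these values, and 17 of the 18 hepatic and endoderm markers were higher in both ECsXAV libraries. Of the 18, 11 were under 1 FPKM in every library and 4 were tested. Among all tested genes, 25.4% were higher in both ECsXAV libraries. VDR, the vitamin D receptor, was at 0 to 0.0405 FPKM. CYP27A1, a mitochondrial sterol hydroxylase, was at 12.6 and 13.6 FPKM against 21.1 and 24.6 FPKM (change 0.75, adjusted p = 0.0584 from limma).

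**Figure D5:**
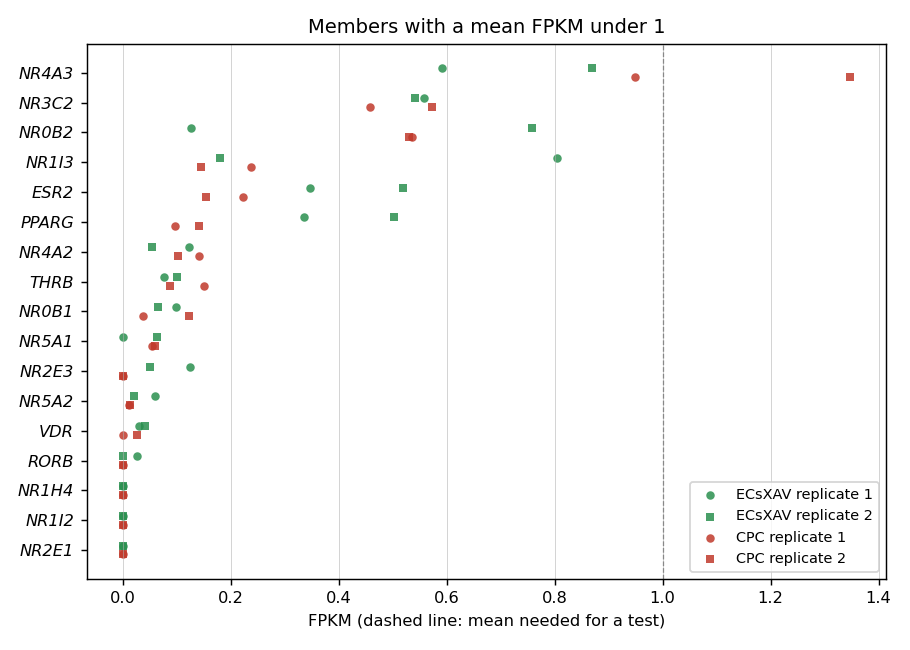
FPKM of the 17 members with a mean under 1 in each library, with a dashed line at 1 FPKM. Only NR4A3 passes 1 FPKM in any library (1.35 FPKM in CPC replicate 2), PPARG and ESR2 lie higher in both ECsXAV libraries, and NR1H4, NR1I2 and NR2E1 are listed at 0.

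Of the orphan receptors, NR2F6, a repressor of the COUP-TF family, was the most abundant member after RXRG, with 30.9 and 37.1 FPKM in the ECsXAV libraries and 26.3 and 35.02 FPKM in the CPC libraries. The libraries of the groups overlapped, and the change was -0.15 (95% interval -0.62 to 0.32, adjusted p = 0.723 from limma). Its relatives NR2F1 and NR2F2 were at 0 to 0.486 FPKM. The testicular receptors NR2C1 (12.4 to 15.3 FPKM) and NR2C2 (6.92 to 9.55 FPKM) had changes of 0.17 and -0.22, and NR6A1, the germ cell nuclear factor, one of 0.14 at 1.78 to 3.21 FPKM. NR5A1, NR2E3 and NR0B1 were at 0 to 0.124 FPKM. Of the 26 tested members, 23 had a 95% interval within 2-fold in either direction, beside 87.7% of all tested genes.

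The general coregulators gave few differences as well. All 30 were tested, none met the criterion by limma, and 3 had an unadjusted p under 0.05, beside 2.15% and 18.2% of all tested genes. The groups did not overlap for 14, beside 49.8% of all tested genes. Of these, 10 were higher in CPC cardiomyocytes (24.4% of all genes) and 4 in ECsXAV (25.4%). NCOA1 (SRC-1), a coactivator of many receptors, had 5.03 and 4.62 FPKM in the ECsXAV libraries and 3.34 and 3.26 FPKM in the CPC libraries (change -0.44, adjusted p = 0.149 from limma). NCOA5 had a change of 0.54 and NRIP1 (RIP140), a repressor of metabolic genes, one of 0.68 at 5.97 and 5.54 FPKM against 12.5 and 7.65 FPKM (adjusted p = 0.227 from limma). The median change of the list was 0.08.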

How the data were processed

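RNA-seq was analysed for day 14 cultures, 2 of the CPC group and 2 of the ECsXAV group. The authors computed the deposited FPKM with Cufflinks and UCSC gene annotations on hg19, and the submitters' processing notes also name TopHat 1.3.3. How the FPKM treated strand, reads with several alignments and scaling between libraries is not given in the sources used here. Read counts were not used, so intervals rest on the spread between libraries.

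Groups and replicate numbers came from the sample names. For symbols with several loci, the row with the highest mean FPKM was used. Changes came from limma 3.58.1 under R 4.3.3, fitted to log2(FPKM + 1) with its variance trend, over the 12398 genes (and, separately, 16504 transcripts) with a mean FPKM of at least 1, two-sided, with Benjamini-Hochberg adjustment over all of them. The steps were tested on simulated data. Positions came from GENCODE release 44 on GRCh37, and promoters from RefSeq on GRCh38.p14. Python 3.11.15 with pandas 2.3.3 and NumPy 2.4.6 was used for tables, and matplotlib 3.10.9 for figures.

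The members and gene lists were chosen with earlier results of these data known. Members given in full were those with an unadjusted p under 0.05 and no overlap between groups and the most abundant of each class, with all others by value or range. From the other lists, the genes past the criterion and up to 4 with the smallest p and no overlap were named. Further genes were picked with their values in view. Alternatives were no filter, a minimum mean of 5 FPKM, a pseudocount of 0.1, quantile or median-of-ratios scaling, no variance trend, leaving out microRNA and snoRNA genes, a replicate block, summing loci or transcripts, and leaving out each replicate.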

Additional observations from a re-analysis of the deposited data

How the results depend on the processing

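The combination of no short RNA genes with the block, and the counts of members by an adjusted or an unadjusted p under 0.05 alone, were chosen after seeing the data. No member and no member transcript met the criterion under any alternative run. Over all genes, 266 met it, against 20 without the filter, 152 at a mean of at least 5 FPKM, 176 under the replicate block and 59 to 159 with a replicate left out. Of the 266, 88 were higher in CPC cardiomyocytes and 178 in ECsXAV, against 12 and 8 without the filter, and 39 and 20 without CPC replicate 1 or 62 and 23 without CPC replicate 2. In the other gene lists 5 genes met it, against 0 without the filter (by limma, with 20 genes called in all), 8 without short RNA genes, 8 without them and with the block, and 1 to 3 with a replicate left out. The block used numbers that the labels do not tie to a shared batch. Replicate 1 minus replicate 2 differences of the 2 groups had a rank correlation of 0.356 across the 12398 genes (Pearson's r 0.0349), and genes are not independent replicates. With it RXRG had an adjusted p of 0.0600 and NR4A1 one of 0.0464 from limma. Members with an unadjusted p under 0.05 numbered 3, and 2 to 8 over the alternatives. Leaving out a replicate, with the lone sample assumed to vary like the others, turned the sign of PPARGC1A (-0.0707 to 0.16), NR1D2 (-0.44 to 0.12), NR1H2 (-0.0024 to 0.34) and NR2F6 (-0.35 to 0.0476), while RXRG kept 0.72 to 0.95, NR4A1 0.81 to 1.14 and ESR1 0.46 to 0.57. Their cause was not tested. ECsXAV replicate 2 had the lowest depth, which limits the values of members under 1 FPKM most.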
